A study of Rattus norvegicus with 8 samples.

Results

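Extracellular matrix and adhesion genes encode the collagens, laminins and fibrillins that surround a cell, the proteases that cut them, and the integrins, cadherins, protocadherins and teneurins by which a cell holds on to the matrix and to its neighbours. Their m6A regions were examined in primary rat vascular smooth muscle cells, the contractile cells of the arterial wall, in which Mettl3 was overexpressed. Members were chosen by gene name, by a rule set with earlier results of these data known. The rule took collagens, Adam, Adamts, Adamtsl and Mmp proteases and relatives, Cdh, Fat and Pcdh cadherins, teneurins, thrombospondins and fibrillins. It also took Ltbp, nidogens, integrins other than Itga8, laminins, and Fn1, Eln, Tnc, Vcan, Hspg2, Postn, Lox and Sparc. This rule found 41 regions in 33 genes, of 1967 regions in 1726 genes that the authors listed as different between the conditions.

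The study holds 8 MeRIP-seq libraries in 4 groups of 2: m6A immunoprecipitation (IP) and input libraries from cells overexpressing Mettl3, and IP and input libraries from control cells that carried the vector. The input groups received no antibody. All 4 groups are the same primary rat cells, and the labels do not say whether the pair of libraries in a group comes from separate isolations, nor which construct carried Mettl3. No column gives a value for a single library, so no spread between libraries, no depth and no new test could be computed.

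N6-methyladenosine (m6A) is a methyl mark on adenosines inside RNA, written by a complex whose catalytic subunit is Mettl3 and read by proteins that steer splicing, export, translation and decay. In MeRIP-seq, RNA fragments bound by an m6A antibody are sequenced, and a stretch of transcript rich in such reads is a candidate methylated region. In the arterial wall, smooth muscle cells lay down collagen and elastic fibres, hold on to laminin through integrins, and loosen these contacts with metalloproteinases when they migrate into the intima.

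In the authors' deposited table, 38 of the 41 matrix and adhesion regions were listed as lower in Mettl3-overexpressing cells and 3 as higher. The lower share was 92.7%, and lower regions made up 86.9% of all listed regions. At the authors' FDR under 0.05, 2 of the 41 regions (4.88%) passed in the authors' deposited table, against a background of 14.0% of all listed regions. Both passing regions were lower, in Tenm4, a teneurin, and Col1a1, a chain of type I collagen (2 of 41, background 11.3% of listed regions passing as lower). No higher region of these genes passed by the authors' test, the tool for which is not named in the labels, where the background was 2.64%. The 3 higher regions had an unadjusted p under 0.05. Itga8, an integrin that the rule leaves out, had a higher region that passed (FDR 0.0112). These shares describe regions that the authors had listed with a fold of 4 or more and p below 0.05 before adjustment, and no test sets the members apart from the rest. The members nearest the FDR threshold were Col1a1 on its inner side, at 0.00831, and Itgb4 on its outer side, at 0.0592, in the authors' deposited table.

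**Figure D1:**
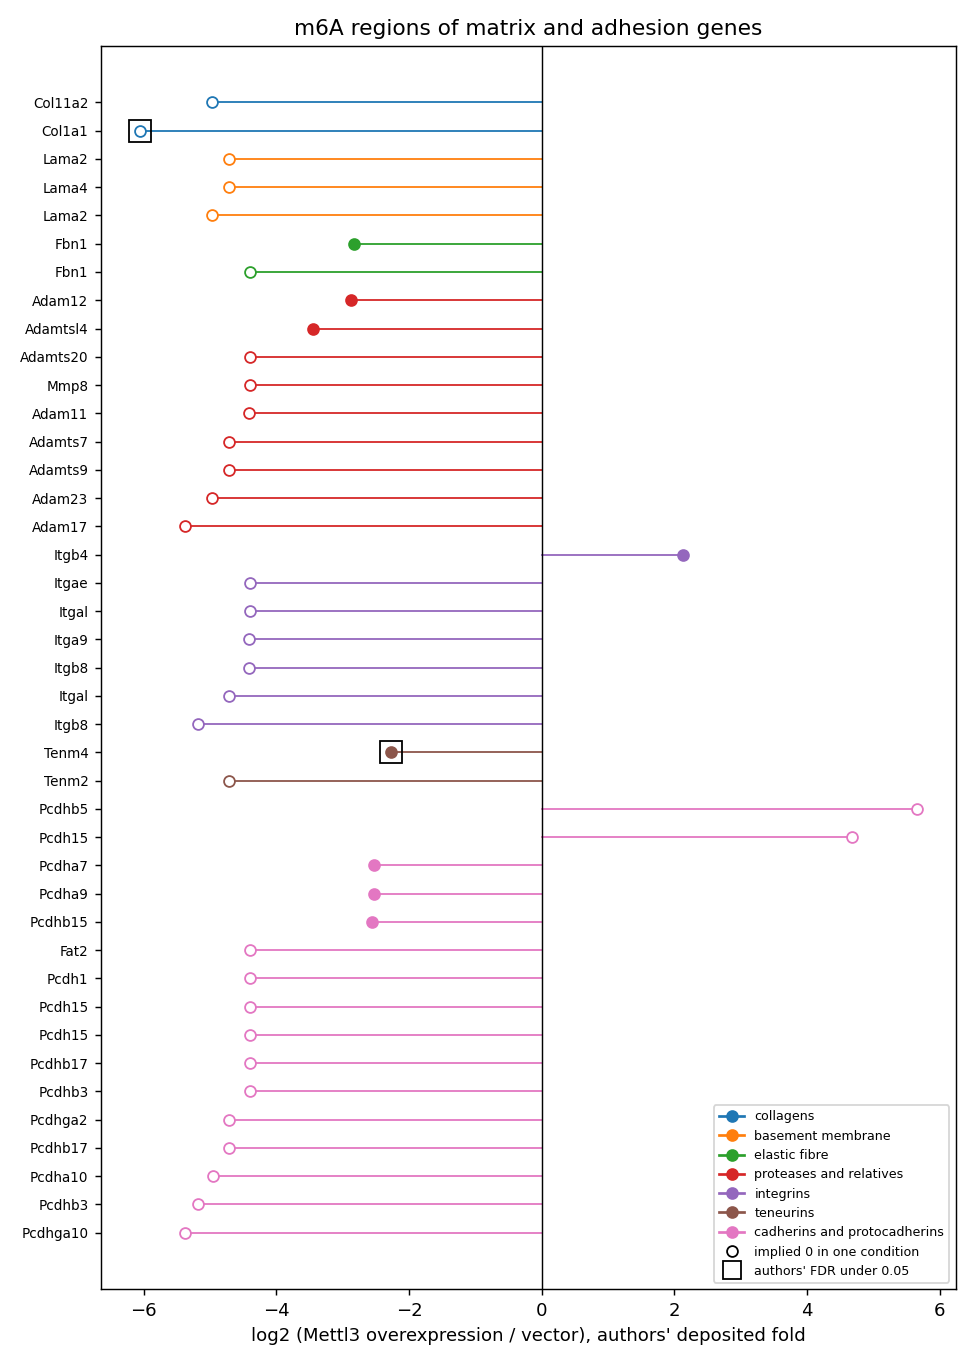
Each of the 41 regions is a line with a point at the log2 of the authors' deposited fold, overexpression over vector, grouped and coloured by role; open points have an implied 0 in 1 condition and squares mark an FDR under 0.05. The 38 points left of 0 are lower in overexpressing cells, and the 3 right of 0 are Itgb4, Pcdhb5 and Pcdh15.

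The folds of lower regions are deposited as vector over overexpression, and those of higher regions as overexpression over vector, so each is above 1. The median deposited fold was 21.2 for the 38 lower matrix and adhesion regions and 26.2 for all 1710 lower regions in the authors' deposited table. Most of these folds have a single decimal, the form left when the mean of 1 condition is 0 and 0.1 is added to both means. Read this way, the means fall on steps of 0.123 in overexpressing cells and 0.503 in vector cells, which were taken as 1 read over the 2 IP libraries of a condition. Numbers of reads obtained from these steps are called implied reads; they are inferred from the folds, and 1 vector read weighs 4.09 times 1 overexpression read. Of the 38 lower regions, 31 had 0 implied reads in overexpressing cells, against 4 to 13 in vector cells. Of these 31, 14 rested on 4 vector reads, 8 on 5, 4 on 6, 2 on 7, 2 on 8 and 1 on 13. An implied 0 was found for 81.6% of the lower matrix and adhesion regions and for 82.7% of all lower regions. With an implied 0 set to 3 reads and no 0.1 added for those regions, the median fold of the 38 regions was 6.80. Regions without an implied 0 kept the deposited fold, which includes the 0.1. The median ratio of reads, with the same 3 reads and without the weights, was 1.67. In these values, more or less m6A cannot be told apart from more or less of the RNA, nor fewer cells making an RNA from less RNA per cell.

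**Figure D2:**
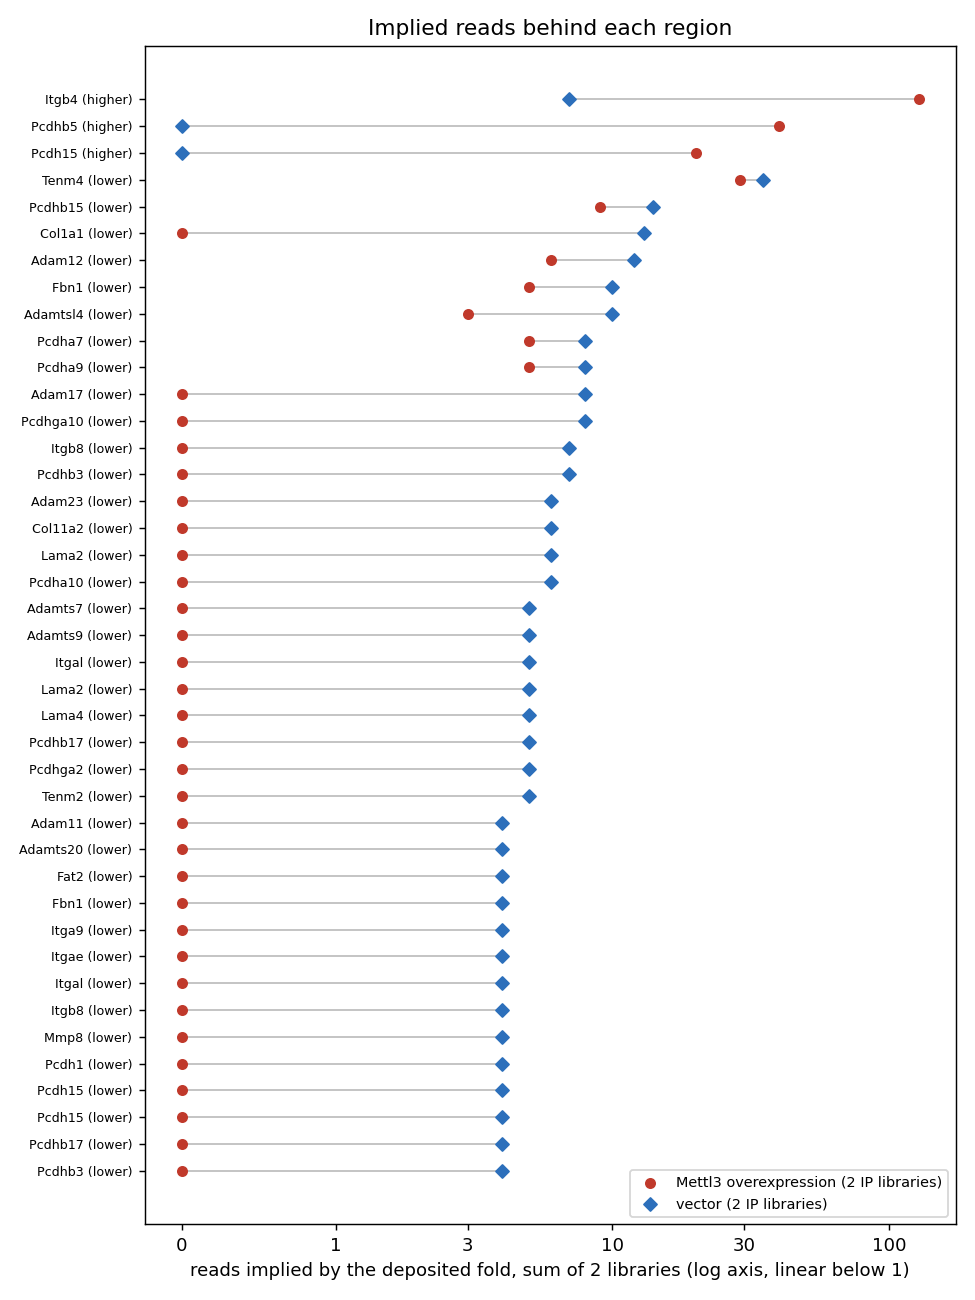
Implied reads per region, summed over the 2 IP libraries of each condition, on a log axis that is linear below 1; circles are Mettl3-overexpressing cells and diamonds vector cells. Of the 38 lower regions, 31 have their circle at 0 with the diamond between 4 and 13, while Itgb4 stands at about 128 reads in overexpressing cells against 7 in vector cells.

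Cadherins and protocadherins held the most regions, 16 in 12 genes, of which 14 were lower and 2 higher, and none passed. Among all listed regions, 86.9% were lower and 14.0% passed. Protocadherins are cadherin-like membrane proteins that mediate contacts between like cells; most of them are encoded in the clusters alpha, beta and gamma that lie next to each other, and each variable exon of these clusters is read from a promoter of its own. In the tables, 11 of the 41 regions lay in 9 clustered genes on chromosome 18, within a span of 899 kb. The same span held 12 listed regions in all, of which the other 1 belonged to the unnamed gene LOC102553012. Clustered members have similar sequences, so reads assigned to one of them are uncertain.

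In the alpha cluster, Pcdha7 and Pcdha9 had the same deposited fold of 5.74 and the same p of 0.0144 (FDR 0.191) in the authors' deposited table. Each rested on 5 implied reads in overexpressing cells against 8 in vector cells, a ratio of reads of 1.6 before the weights. Pcdha10 had 0 implied reads in overexpressing cells against 6 in vector cells, with a deposited fold of 31.1 (FDR 0.159) in the authors' deposited table. These 3 regions were 379 bp long each and lay within 17.64 kb, at 29691061 to 29691440, 29702281 to 29702660 and 29708701 to 29709080 of chromosome 18.

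In the beta cluster, genes were listed in both directions. Pcdhb5 had the largest fold among higher members, 50.2 (p = 0.00253, FDR 0.0847), in the authors' deposited table. Its region, on chromosome 18 from 30105961 to 30106160, rested on 40 implied reads in overexpressing cells against 0 in vector cells. With 3 vector reads in place of 0, and no 0.1 added to the means, its fold was 3.26, the ratio of reads being 13.3. The nearest region of another clustered protocadherin, 14.6 kb away in Pcdhb3, was lower. Pcdhb3 had 2 lower regions 1.72 kb apart, with 0 implied reads in overexpressing cells against 7 (30091241 to 30091405) and 4 (30089321 to 30089520) in vector cells. Their deposited folds were 36.2 (FDR 0.112) and 21.1 (FDR 0.248) in the authors' deposited table. Pcdhb17 likewise had 2 lower regions, 1.44 kb apart, with 0 implied reads in overexpressing cells against 5 and 4 in vector cells. Pcdhb15 had 9 implied reads in overexpressing cells against 14 in vector cells, a fold of 5.91 (FDR 0.137) in the authors' deposited table.

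In the gamma cluster, Pcdhga10 was listed as lower with 0 implied reads in overexpressing cells against 8 in vector cells. Its fold of 41.3 (p = 0.00218, FDR 0.0787) in the authors' deposited table missed the threshold. Pcdhga2 had 0 against 5 implied reads in overexpressing and vector cells and a fold of 26.1 (FDR 0.222) in the authors' deposited table.

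**Figure D3:**
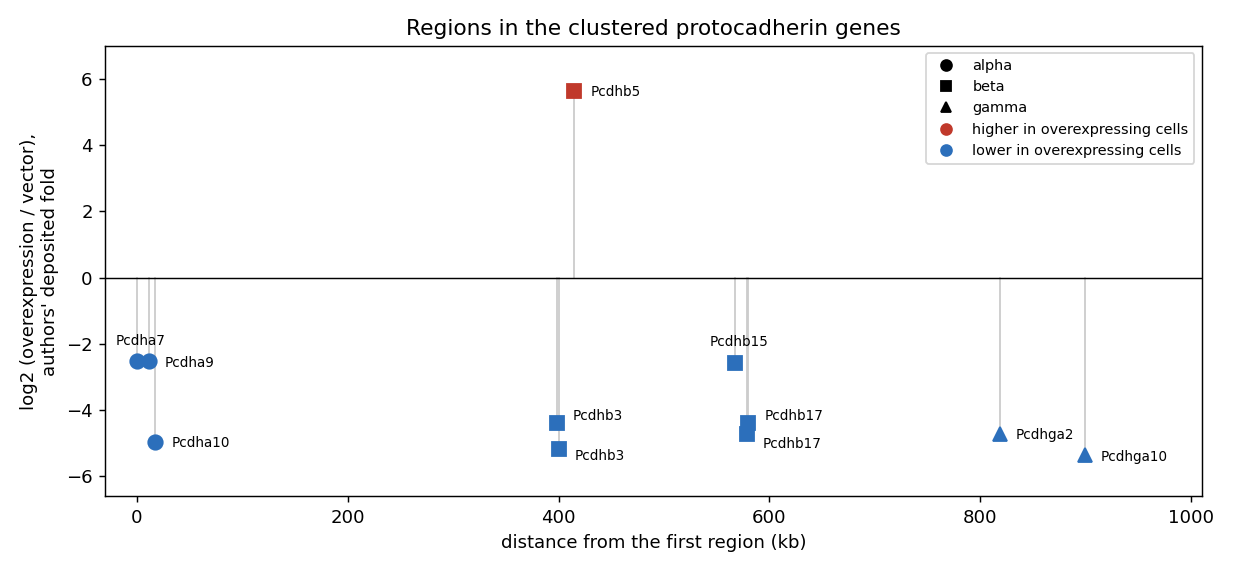
Log2 of the authors' deposited fold, overexpression over vector, of the 11 regions in clustered protocadherin genes against their distance from the first region in kb; circles, squares and triangles are the alpha, beta and gamma clusters. The single region above 0 is Pcdhb5 at 414.9 kb, between the lower regions of Pcdhb3 and Pcdhb15.

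Stretches of the promoters of Pcdhb5 and Pcdhb3, beta genes listed in opposite directions, are shown. Those of Pcdhga2 and Pcdhga10, both listed as lower, are printed beside them. All the stretches were taken from RefSeq (build GRCr8, plus strand of chromosome 18). A link between promoter sequence and the direction of a region was not tested. Promoter windows ran from 250 bases before to 50 bases after each gene's start. Matched by gene name, they were at hand for 24 of the 33 genes, among them 5 of the 9 clustered ones. The capitals mark GGTGGCGCTG in the beta genes and its last letters CGCTG in the gamma genes, which are the longest run that the Pcdhb5 and Pcdhb3 windows share and the longest part of it found in both gamma windows; they were chosen after the sequences were seen.
Pcdhb5: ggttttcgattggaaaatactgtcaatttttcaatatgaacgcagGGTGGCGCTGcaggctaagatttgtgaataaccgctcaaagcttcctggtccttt
Pcdhb3: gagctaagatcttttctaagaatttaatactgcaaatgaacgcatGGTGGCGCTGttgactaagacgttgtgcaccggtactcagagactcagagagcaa
Pcdhga2: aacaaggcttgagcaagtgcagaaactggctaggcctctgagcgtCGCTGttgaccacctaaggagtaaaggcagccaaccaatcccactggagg
Pcdhga10: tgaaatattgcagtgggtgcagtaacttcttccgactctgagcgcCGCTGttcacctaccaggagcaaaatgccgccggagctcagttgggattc
These stretches lie at chr18:29302369-29302468, chr18:29285569-29285668, chr18:29745053-29745147 and chr18:29825784-29825878 of GRCr8. The build of the region coordinates is not stated, so positions of promoters and regions cannot be compared. The motif began 52 bases before the start in Pcdhb5 and 61 bases before it in Pcdhb3. That these 4 genes hold the motifs was fixed by the choice, so they are left out of the counts that follow, which are descriptions. Searched on both strands, GGTGGCGCTG was found in 13 of 15 other beta protocadherin promoters (86.7%), in 0 of 13 other gamma promoters and in 0.215% of the 33465 other promoters of all genes. The shorter CGCTG, which any match of the longer motif contains, was found in 9 of 13 other gamma promoters (69.2%), in 10 of 19 promoters of member genes outside the clusters and in 37.0% of the 33465. The window named Pcdhb15 held neither motif, but the gene ID of the listed Pcdhb15 region did not match RefSeq.

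The other cadherin genes were Fat2, an atypical cadherin, Pcdh1 and Pcdh15. Pcdh15, known from the tip links of hair cells in the inner ear, was the only member gene with regions in both directions. Its higher region, 36 bp on chromosome 20 from 17466364 to 17466400, had 20 implied reads in overexpressing cells against 0 in vector cells, and a fold of 25.6 (p = 0.0286, FDR 0.248) in the authors' deposited table. Its 2 lower regions, 254 kb apart, had 0 implied reads in overexpressing cells against 4 in vector cells each. The higher one lay 67.0 kb from the nearer of them, and none of the 3 passed. Fat2 and Pcdh1 also rested on 4 vector reads against 0 in overexpressing cells.

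Teneurins, large membrane proteins that bind latrophilins across cell contacts, had a lower region in Tenm4 and in Tenm2. Tenm4 had the smallest p of all members, 2.95e-05 (FDR 0.00485), and the smallest fold among the lower ones, 4.83, in the authors' deposited table. Its support was about 29 implied reads in overexpressing cells against 35 in vector cells, a ratio of reads of 1.21 before the weights. No other lower region of the set had as many implied reads, and its 673 bp made it the longest. Its region lay on chromosome 1 from 168093701 to 168094374. Tenm2 had 0 implied reads in overexpressing cells against 5 in vector cells, with a fold of 26.2 (FDR 0.217) in the authors' deposited table.

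The collagens Col1a1 and Col11a2 each had 1 lower region. Type I collagen is the main fibrillar collagen of the arterial wall, and Col1a1 encodes its alpha-1 chain. Its region of 23 bp, on chromosome 10 from 82580341 to 82580364, had 0 implied reads in overexpressing cells against 13 in vector cells. The fold of 66.5 (p = 5.97e-05, FDR 0.00831) was the largest of the set in the authors' deposited table, and with 0 set to 3 overexpression reads it was 17.8. Col11a2, a chain of the type XI collagen of cartilage, had 0 implied reads in overexpressing cells against 6 in vector cells and a deposited fold of 31.3 (FDR 0.159) in the authors' deposited table.

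Basement membrane genes had 3 lower regions, in the laminin chains Lama2 and Lama4, none of which passed (background 14.0% of all listed regions). Lama2, the alpha chain of the laminin around muscle fibres, carried 2 of them, 290.0 kb apart on chromosome 1, with 0 implied reads in overexpressing cells against 6 and 5 in vector cells. Their folds were 31.2 (FDR 0.159) and 26.1 (FDR 0.222) in the authors' deposited table. Lama4, an alpha chain of the laminins of blood vessels, had 0 implied reads in overexpressing cells against 5 in vector cells.

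Fbn1 encodes fibrillin-1, which forms the microfibrils of elastic fibres, and had 2 lower regions 65.0 kb apart. The region on chromosome 3 from 124105761 to 124105880 had 5 implied reads in overexpressing cells against 10 in vector cells, with a fold of 7.14 (p = 0.00403, FDR 0.112) in the authors' deposited table. The other, of 25 bp, had 0 implied reads in overexpressing cells against 4 in vector cells. No listed region lay in Eln, Fn1, Hspg2, Lox, Postn, Sparc, Tnc or Vcan, nor in any Thbs, Ltbp, Nid, Cdh, Lamb or Lamc gene. Absence from the tables does not say whether such a gene was methylated, only that it was not listed as different.

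Proteases and their relatives had 9 regions in 9 genes, all lower and none passing, where 86.9% of all listed regions were lower and 14.0% passed. Adam17, the sheddase that releases TNF and EGF receptor ligands, had the smallest p of them, 0.00218 (FDR 0.0787, fold 41.3), in the authors' deposited table. Behind it stood 0 implied reads in overexpressing cells against 8 in vector cells, on chromosome 6 from 60283481 to 60283570. Adamtsl4, a protein without protease activity that binds fibrillin microfibrils, had 3 implied reads in overexpressing cells against 10 in vector cells, with a fold of 10.9 (FDR 0.141) in the authors' deposited table. Adam12, a membrane metalloproteinase, had 6 implied reads in overexpressing cells against 12 in vector cells, with a fold of 7.32 (FDR 0.159) in the authors' deposited table. Adam23 had 0 implied reads in overexpressing cells against 6 in vector cells, with a fold of 31.3 (p = 0.0115, FDR 0.159), in the authors' deposited table. The other 5 had 0 implied reads in overexpressing cells against 4 or 5 in vector cells. They were Adam11, which like Adam23 lacks protease activity, Adamts7, Adamts9 and Adamts20, secreted proteases of matrix proteoglycans and glycoproteins, and Mmp8, the collagenase of neutrophils.

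Integrins other than Itga8, which the rule leaves out, had 7 regions in 5 genes, 6 lower and 1 higher, and none passed. Over all listed regions, 86.9% were lower and 14.0% passed. Itgb4, the chain that anchors epithelial cells to laminin in hemidesmosomes, was listed as higher, with a fold of 4.38 (p = 0.000955, FDR 0.0592) in the authors' deposited table. This region of only 14 bp, on chromosome 10 from 103740826 to 103740840, rested on about 128 implied reads in overexpressing cells against 7 in vector cells. It thus held more implied reads than any other region of the set, about 135 in all. Itgb8, which activates latent TGF-beta with its alpha-V partner, had 2 lower regions 69.8 kb apart with 0 implied reads in overexpressing cells against 7 and 4 in vector cells. The region with 7 vector reads was 2 bp long, the shortest of the set, and its fold was 36.2 (FDR 0.112) in the authors' deposited table. Itgal and Itgae, integrin chains known from leukocytes, had 0 implied reads in overexpressing cells against 4 or 5 in vector cells, as had Itga9 against 4. None of 6 leukocyte and macrophage, 7 endothelial and 5 adventitial fibroblast markers had a listed region; their level in the cells cannot be read from these tables. Of 10 smooth muscle markers 3 had one, higher in Itga8 and lower in Myocd and Cnn1. Only Itga8 passed (fold 13.5, FDR 0.0112, in the authors' deposited table). It is the integrin that the rule leaves out, so the counts of integrin regions above do not cover it.

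Equal folds recurred. The 41 regions held 21 distinct pairs of fold and p, and 30 regions shared their pair with another member. Fbn1, Itgal, Mmp8, Pcdh15, Pcdhb17 and Pcdhb3 shared a fold of 21.1 and a p of 0.0402, a pair held by 231 listed regions in the authors' deposited table. Such regions cannot be ranked among themselves.

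**Figure D4:**
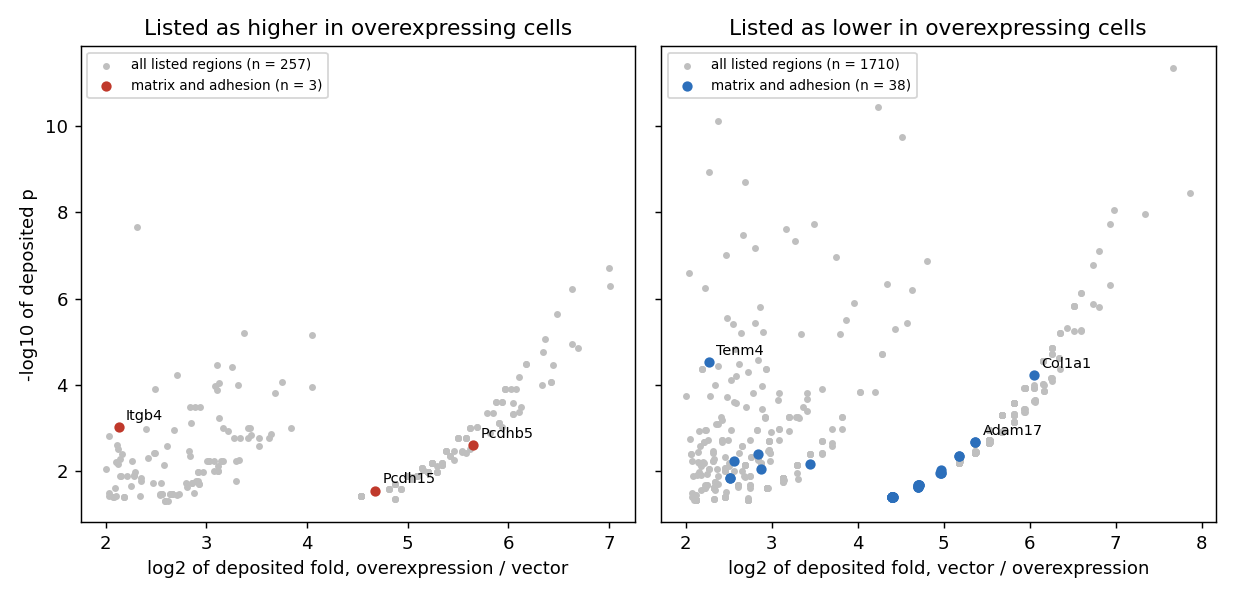
The -log10 of the deposited p against the log2 of the deposited fold, for higher (left) and lower (right) regions; grey points are all listed regions and coloured points the matrix and adhesion regions. The rising band at the right of each panel holds the regions with an implied 0, and most of the coloured points of the right panel lie at its lower end, below Adam17 and Col1a1.

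Regions in clustered protocadherins were long. Their median length was 379 bp over 11 regions, and that of the other 30 members 104.5 bp, against 131 bp over all listed regions. Length was not particular to the clusters. Fat2 and Tenm2 had regions of 339 bp, Pcdh1 of 259 bp, and Itgal and Itgb8 of 379 bp each, while those of Pcdh15 were 36 to 94 bp. Exactly 379 bp was the length of 6 of the 11 and of 7.02% of all listed regions. Both edges lay on a grid of 20 bp, where the ends of 910 of the 1967 listed regions fall, for 9 of the 11, for 6 of the other 30 members and for 21.7% of all listed regions. Members shorter than 50 bp numbered 6 (14.6%), against 13.0% of all listed regions, and included Col1a1 and Itgb4.

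By the KEGG annotation in the tables, ECM-receptor interaction and focal adhesion each held Col1a1, Itga9, Itgb4, Itgb8, Lama2 and Lama4, 6 of the 10 annotated member genes. These were 6 of 11 listed genes of the receptor pathway and 6 of 29 of focal adhesion, the rule having chosen genes by such names. The GO component proteinaceous extracellular matrix held 7 of 33 annotated member genes (21.2%) and 15 of 1404 annotated listed genes (1.07%). Integral component of membrane held 16 of 33 (48.5%) and 260 of 1404 (18.5%). The choice by name bears on these counts too, which are descriptions.

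Other genes of the pathway were taken from 5 lists of 86 genes. Of these, 9 had a listed region, 8 a lower and 2 a higher one, and 1 passed. Over all listed regions, 86.9% were lower and 14.0% passed. The passing gene was Fermt2, kindlin-2, which activates integrins at focal adhesions; it had 0 implied reads in overexpressing cells against 11 in vector cells and a fold of 56.3 (FDR 0.0240) in the authors' deposited table. Ptk2, the focal adhesion kinase, was listed both ways, with 37 implied reads in overexpressing cells against 1 in vector cells for the higher region and 0 against 6 for the lower one. Rock1, a kinase that drives actomyosin contraction, had 5 implied reads in overexpressing cells against 12 in vector cells (fold 8.51, FDR 0.0592, in the authors' deposited table). Tln2, a talin, was lower with 0 against 5 implied reads in overexpressing and vector cells. Among 30 other matrix glycoproteins and proteoglycans, Tgfbi and Sdc4 had a lower and Has2, a hyaluronan synthase, a higher region. Tgfbi had 0 implied reads in overexpressing cells against 10 in vector cells (FDR 0.0613), and Has2 had 29 against 0 (FDR 0.159), in the authors' deposited table. Of 7 protease inhibitors only Timp1 was listed, as lower, with 16 implied reads in overexpressing cells against 18 in vector cells. None of 16 matrix crosslinking and collagen processing enzymes was listed, and of 11 cadherin partners only Celsr1, as lower.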

How the data were processed

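MeRIP-seq was made from fragmented total RNA, with 10% of the fragments kept as input, per the labels' protocols, and Trimmomatic 0.36 is named, with no role, in the submitters' processing notes. Aligner, build, region caller and use of the input are not stated in the labels; region names begin with diffreps. The authors deposited, per the file headers, a fold (a ratio, at least 4), a p-value under 0.05, an FDR (the p-value adjusted by the authors) and a score that equals the −log10 of the p-value. Region coordinates are given as deposited, and lengths as end minus start. Edges fall on a 20 bp grid as if counted from 1. The tables do not place regions in exons or UTRs.

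From the folds, implied reads were computed with Python 3.11.15 and pandas 2.3.3. Of 1343 vector means under 6 (regions with a single-decimal fold), 95.2% lay within 0.015 of a step, where chance gives 5.96% for a step fixed beforehand. Of 122 overexpression means, 96.7% did, where chance gives 24.4%. Each step was chosen as the one with the largest such share in these same means, and many regions repeat a mean. These shares are therefore a description of the fit and no test of it. For regions without a 0, the smallest pair of means on both steps was taken, which is less certain, and for Tenm4 and Itgb4, whose means are large against a step, approximate.

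Members, lists and the rule that picks named genes (passing and higher regions, genes with several regions, the smallest p, the extremes of fold and length) were chosen with earlier results of these data known; tests planned per library were replaced by counts of the authors' calls. Gene IDs of 37 of the 41 regions matched RefSeq (GRCr8), all on the same chromosome.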

Additional observations from a re-analysis of the deposited data

How the results depend on the processing

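At an FDR under 0.01 the 2 lower regions still passed, and an FDR under 0.1 gave 4 lower and 2 higher regions in place of 2 and 0. The share of all listed regions under either of these thresholds is not given here. The count of passing lower regions was 1 without folds of a single decimal, 1 with regions of at least 50 bp (both leave out Col1a1), and 1 without the Adam, Cdh, Fat, Pcdh and Tenm genes, which leaves out Tenm4. Of listed regions, 7 lower and 1 higher were left without folds of a single decimal, and 18 lower and 1 higher without those membrane genes; a minimum of 50 bp left 34 lower and 1 higher. The median fold of lower regions was 21.2. It was 6.80 when 3 reads replaced an implied 0, with no 0.1 added for those regions. The median ratio of implied reads, with the same 3 reads but without the weights, was 1.67 and is not a fold. The median fold of the 3 higher regions was 25.6, or 3.26 with 3 reads in place of 0, and their median ratio of reads was 13.3. The fold was 50.2 at a minimum of 50 bp and 4.38 without the membrane genes. It was 14.99 without the clustered protocadherins, a setting chosen after seeing the data. These subsets hold fewer regions by construction. The counts stayed within 1.5 times when genes were counted in place of regions, without the clustered protocadherins and, for passing regions, with at least 10 implied reads; the median fold of lower regions did so without the clustered protocadherins, at a minimum of 50 bp and without the membrane genes. No paired analysis was possible because no column gives a value for a library, and leaving out a replicate was not run for the same reason. Depth is unknown, and most members rest on 4 to 8 vector reads.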
